A study of Mus musculus with 8 samples.

Results

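Chromatin accessibility was described at 8 genes of the erythroid program, namely Klf1, Epor, Car1, Car2, Tfrc, Nfe2, Bcl11a and Aqp1. The members were chosen by name. Every peak of the 8 deposited ATAC-seq peak lists that overlapped the gene body or the 20 kb on either side of it (mm10, GENCODE) was taken. This gave 429 of 501728 listed peaks. Merged across libraries wherever they shared at least 1 bp, they formed 103 of 123260 regions.

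The libraries came from bone marrow of female mice of 4.5 months on the mixed 129Sv4/Jae x B6 strain. Stem and multipotent cells were sorted as LSK+ (no lineage markers, both SCA-1 and c-KIT), and committed myeloid, erythroid and megakaryocyte progenitors as LSK- (c-KIT without SCA-1). For either cell type 2 libraries were from WT mice and 2 from XistΔ/Δ mice, with about 10000 cells each. In the XistΔ/Δ mice both copies of a floxed Xist were deleted by an iCre transgene under the Vav1 promoter, which is active across blood cells, so the deletion was not limited to the erythroid lineage. The sort removed cells carrying TER-119, so erythroblasts past the progenitor stage were gated out of both cell types. In such bulk samples, fewer cells of a type and lower accessibility per cell cannot be told apart.

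Red cell production runs from multipotent progenitors through megakaryocyte-erythroid progenitors to erythroblasts. GATA1, TAL1 and KLF1 open and activate erythroid promoters and enhancers on this route, the erythropoietin receptor carries the survival signal, and the transferrin receptor brings in iron. Carbonic anhydrases and aquaporin 1 are abundant products of the mature red cell, where they handle carbon dioxide and water.

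A peak's level is given as its percentile by -log10 p within its own library's list (100 for the strongest peak, 0 where no peak was listed). A promoter was the highest peak with its summit within 3 kb of an annotated start of the gene, and a region farther than that from any start was called distal. A feature was called higher in 1 cell type when all 4 of its percentiles lay above all 4 of the other. By genotype it was called when both libraries of 1 genotype lay above both of the other in LSK+ and again in LSK-. List length ranged from 29829 to 91590 peaks, and the background pileup, a guide to depth, from 0.482 to 3.87 fragments. The shallowest library was LSK+ WT replicate 2 and the deepest LSK- XistΔ/Δ replicate 1. Exact permutation p-values had 36 assignments and could not go below 0.0556. A feature listed in all 4 libraries of 1 cell type and in none of the other had to be called, with p at this value.

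Between 28 and 51 peaks lay in the 8 windows in the LSK+ libraries and between 45 and 89 in the LSK- libraries. The rate per 10000 listed peaks was 6.79, 9.39, 6.18 and 7.12 for LSK+ (both WT replicates, then both XistΔ/Δ replicates) and 9.56, 11.98, 9.72 and 9.59 for LSK-. Every LSK- rate was above every LSK+ rate (difference 2.84 per 10000, exact permutation p = 0.0556, the smallest possible). By genotype the rate was 8.15 in XistΔ/Δ and 9.43 in WT on average, a difference within the spread (exact permutation p = 0.333). The Car1 window had no listed peak in any LSK+ library, against 2 to 10 regions in the LSK- libraries.

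Of the 8 promoters, all of which were listed in at least 4 libraries, 2 (Epor and Car1) were higher in LSK- and none in LSK+. Among all 14933 promoters of protein-coding genes listed in at least 4 libraries, 1.89% were higher in LSK- and 2.07% in LSK+. Car1 was listed in the 4 LSK- libraries alone and so had to be called. Among promoters listed in at least 5 libraries, 1 of 7 in the windows and 1.73% of the series were higher in LSK-. With summits limited to 1 kb from a start, Klf1 joined them and 3 of the 8 promoters were higher in LSK-, against 1.67% of all promoters measured that way. Within 1 kb, Klf1 too was listed in the 4 LSK- libraries alone and so had to be called. Over the 8 promoters the median difference, LSK- minus LSK+, was 2.04 points, against 1.27 over all promoters. Both medians include promoters listed in 1 cell type alone, such as Car1, and were not taken without them. The 6 promoters other than Epor and Car1 stood at the 54.9th percentile or above in every LSK+ library, and those of Nfe2 and Tfrc at the 92.1st or above in all libraries.

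**Figure D1:**
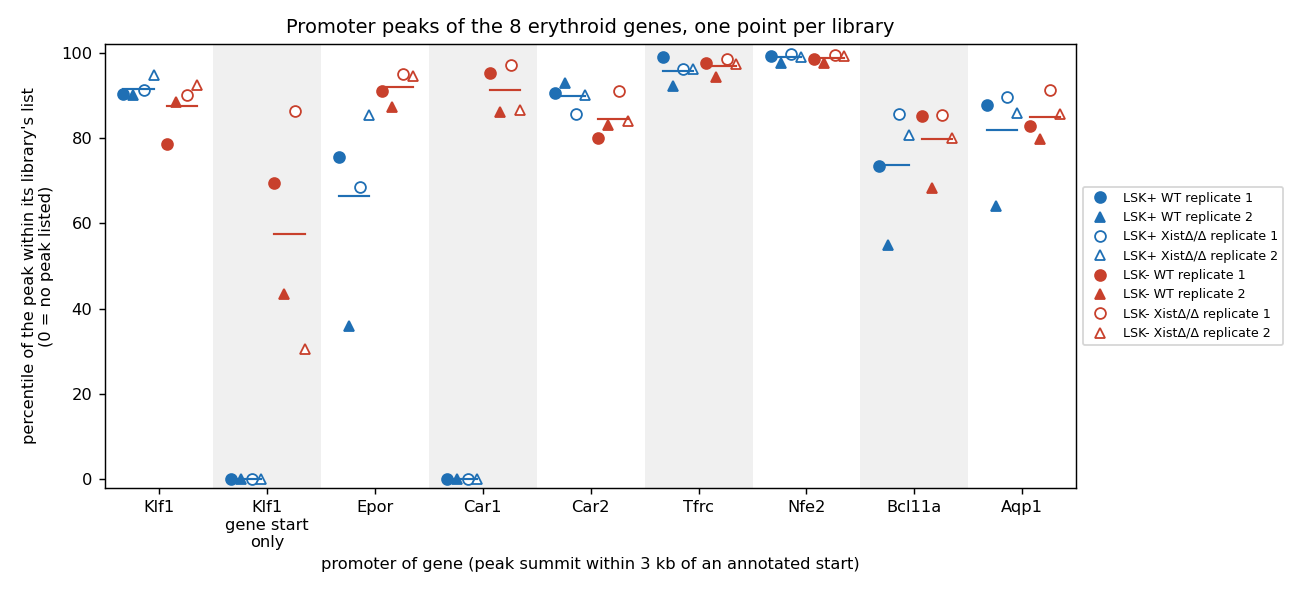
Percentile of the promoter peak (vertical axis, 0 where no peak was listed) for each gene and library, with horizontal lines at the mean of the 4 LSK+ (blue) and the 4 LSK- (red) libraries, filled symbols for WT and open for XistΔ/Δ. The Car1 promoter and the region at the start of Klf1 lie at 0 in all 4 LSK+ libraries, Epor is higher in LSK- without overlap, and the cell types overlap in the other 6 columns.

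Klf1 encodes the zinc-finger activator KLF1, a master regulator of erythroid genes. Its gene (ENSMUSG00000054191, chr8:84901928-84905291, plus strand) had 2 promoter regions that behaved differently. The region over the start of the gene (chr8:84901004-84902160) was not listed in any LSK+ library. In LSK- it stood at the 69.4th and 43.5th percentile in WT and the 86.3rd and 30.6th in XistΔ/Δ. The LSK- libraries lay above the LSK+ libraries with no overlap (mean difference 57.4 points, exact permutation p = 0.0556), by 77.9 points among replicates 1 and 37.0 among replicates 2. The lack of overlap and this p followed from the region being listed in LSK- alone. At its summit 62, 32, 210 and 32 fragments were stacked in the 4 LSK- libraries, 27.0 to 54.3 times the background of their libraries.

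The second Klf1 region, 1.3 kb inside the gene (chr8:84902889-84903619, summit in an exon), was listed in every library. It stood at 90.2, 90.0, 91.1 and 94.7 in LSK+ and at 78.5, 88.3, 90.1 and 92.5 in LSK- (both WT replicates, then both XistΔ/Δ replicates, the order used from here on). The cell types overlapped (difference -4.13, exact permutation p = 0.111). Because it was the stronger peak, it set the 3 kb promoter value of Klf1. Pairing libraries of the same replicate number and genotype, LSK+ was the higher in every pair, and Klf1 was then the 1 promoter of 8 counted as higher in LSK+ (9.61% of all promoters under that rule). The highest distal region of Klf1 lay 11.2 kb from its start, past the gene in an exon of Mast1. That region stood at 49.7, 33.6, 22.1 and 39.9 in LSK+ and 41.4, 38.7, 60.5 and 52.2 in LSK-. The cell types overlapped there (difference 11.9, exact permutation p = 0.222).

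The sequence of the window on the summit at the start of Klf1 is shown because that region was listed in LSK- alone. It is from the GRCm38 reference (chr8:84901749-84901927, plus strand, up to the base before the first exon), and capitals mark a GATA motif and the CAG of an E-box with GATA, read on the minus strand.
Klf1 start: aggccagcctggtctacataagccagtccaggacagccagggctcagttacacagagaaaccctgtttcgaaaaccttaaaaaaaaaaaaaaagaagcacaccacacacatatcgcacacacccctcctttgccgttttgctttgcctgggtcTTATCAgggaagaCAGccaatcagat

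Nfe2 encodes the larger subunit of NF-E2, a factor of erythroid and megakaryocyte genes. The region at its 5′ end (chr15:103257954-103258932, gene on the minus strand) was among the strongest peaks of every list. It stood at 99.3, 97.5, 99.7 and 99.03 in LSK+ and 98.5, 97.5, 99.4 and 99.3 in LSK-. The cell types overlapped (difference -0.213, exact permutation p = 0.611). None of the other 5 own promoter regions of Nfe2 separated the cell types. The region 5.5 kb into the gene stood at 0, 0, 0 and 55.6 in LSK+ and 18.1, 29.7, 45.2 and 72.5 in LSK- (exact permutation p = 0.111). Its highest distal region, 11.1 kb from the 5′ end and past the gene, was listed in 3 libraries and never above the 6.31st percentile.

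Bcl11a encodes a zinc-finger repressor best known for silencing fetal-type globin genes in red cells, and it is also used in lymphoid progenitors. It had the most regions of the 8 windows, 33, of which 27 were distal, in a gene of 96068 bp (chr11:24078056-24174123, plus strand). Its promoter value came from a region 1.6 kb upstream (chr11:24076133-24076826) that lay nearer to a start of the neighbouring Gm12063, and stood at 73.4, 54.9, 85.7 and 80.8 in LSK+ and 85.2, 68.3, 85.4 and 79.9 in LSK-, with overlap (difference 5.98, exact permutation p = 0.611). Inside the gene, a region higher in LSK- at 58.3 kb and a region higher in LSK+ at 61.6 kb lay within a few kb of each other. The other called regions, at 22.8 and 51.9 kb (LSK-) and 84.2 kb (LSK+), lay farther from any region of the opposite direction.

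The Bcl11a region with the largest difference lay 58.3 kb into the gene in an intron (chr11:24135753-24136680). It was not listed in 3 of the 4 LSK+ libraries, was at 7.33 in LSK+ XistΔ/Δ replicate 2, and stood at 95.4, 70.2, 96.8 and 82.2 in LSK-. The difference was 84.3 points (exact permutation p = 0.0556), 96.1 among replicates 1 and 72.6 among replicates 2. A region at 51.9 kb was not listed in LSK+ and stood at 63.0, 51.0, 83.4 and 12.5 in LSK-. One at 22.8 kb, also not listed in LSK+, stood at 69.5, 1.57, 85.8 and 8.94 in LSK-, so that its replicates 2 lay near the bottom of their lists.

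The reverse pattern was found 61.6 kb into Bcl11a (chr11:24139171-24140070), which stood at 86.2, 57.7, 91.0 and 74.8 in LSK+ and 33.2, 0, 40.01 and 30.5 in LSK- (difference -51.5, exact permutation p = 0.0556). The region at 84.2 kb stood at 60.4, 27.6, 73.0 and 57.8 in LSK+ and 0, 0, 11.9 and 17.9 in LSK- (difference -47.3, exact permutation p = 0.0556). All 5 of these regions were intronic. The highest distal region by mean, 107.1 kb from the start and past the end of the gene, was listed at 49.9 to 87.1 in LSK+ and 62.8 to 83.6 in LSK-, with overlap.

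**Figure D2:**
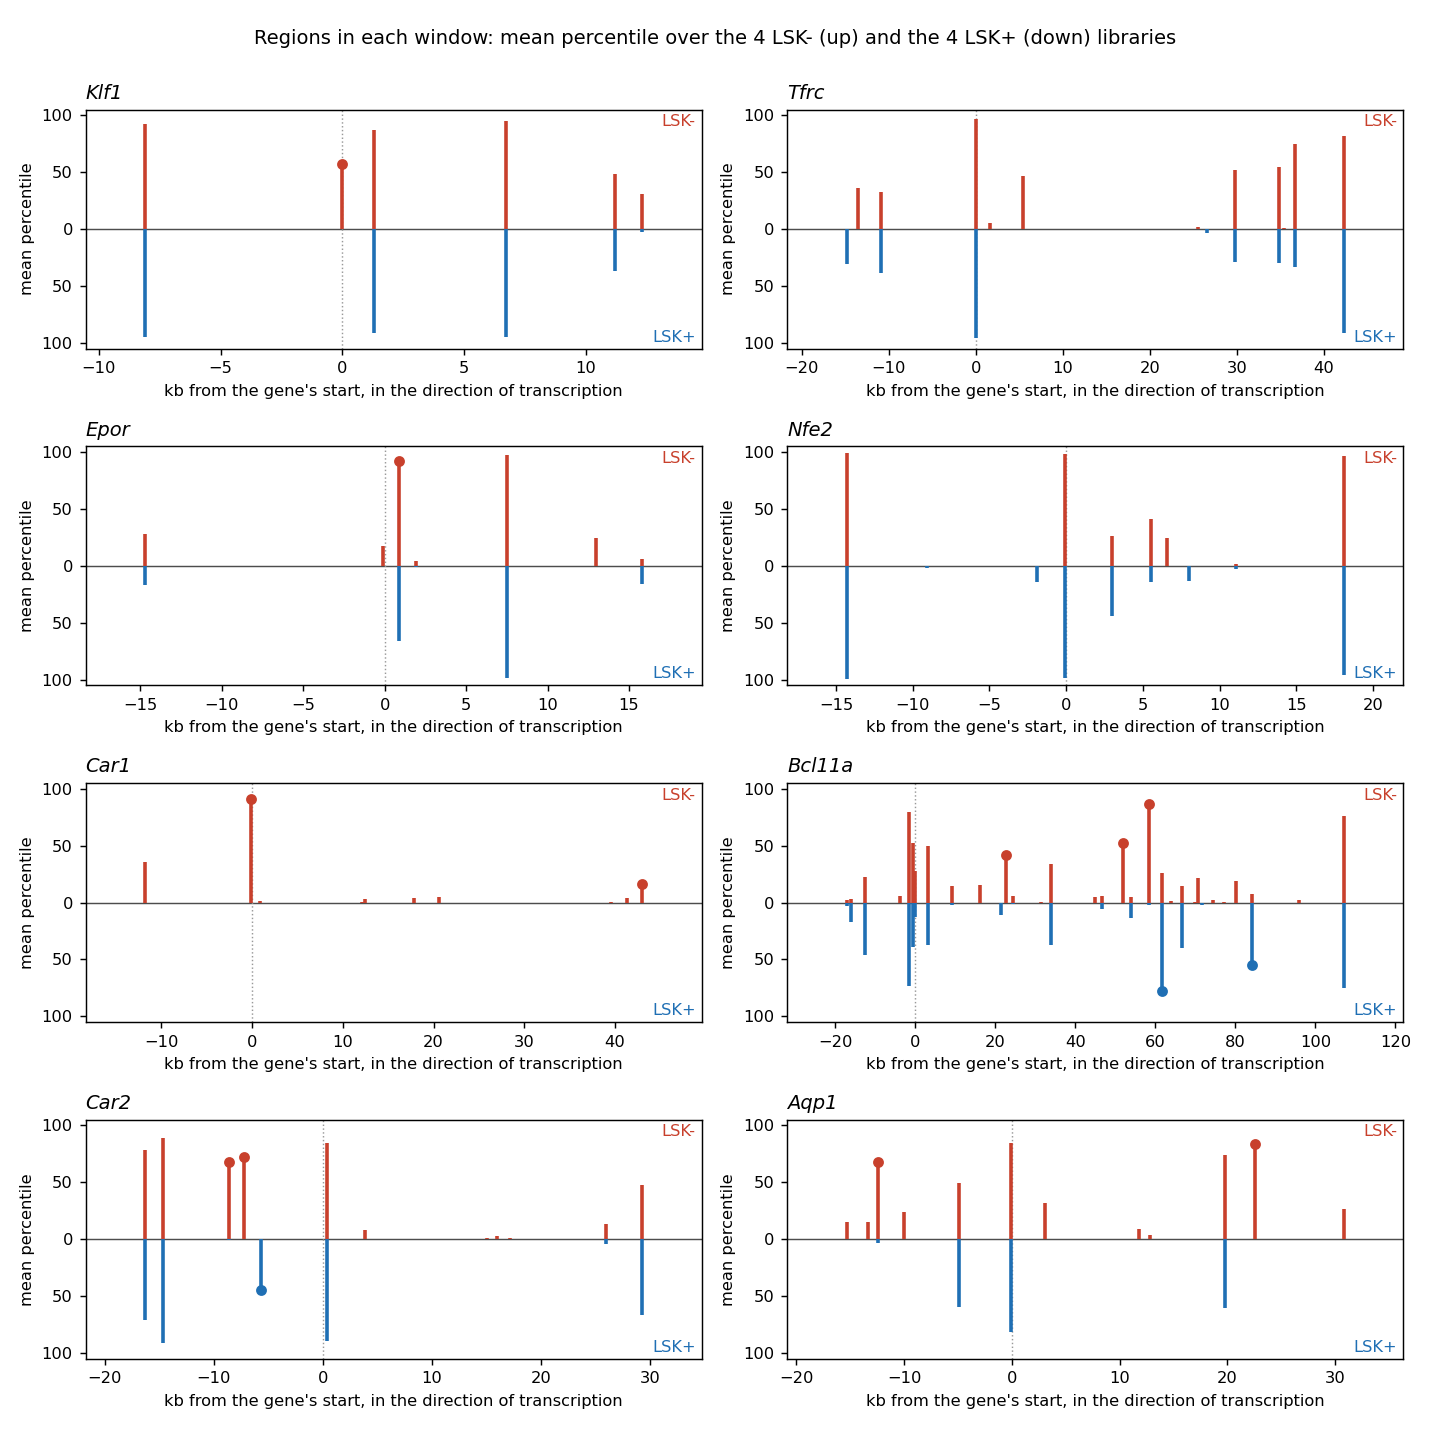
Mean percentile of each region (vertical axis) over the 4 LSK- libraries, drawn upward in red, and the 4 LSK+ libraries, drawn downward in blue, against the distance of its summit from the gene's start in kb, 1 panel per gene. Dots mark regions whose cell types did not overlap, and the Car1 panel has no blue line because no region there was listed in LSK+.

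Epor encodes the receptor for erythropoietin. Its promoter value came from a region in the first 1 kb of the gene (chr9:21962173-21963032, intronic in the basic annotation, gene on the minus strand). It stood at 75.6, 35.97, 68.5 and 85.4 in LSK+ and at 90.9, 87.3, 95.1 and 94.5 in LSK-. The lowest LSK- library was above the highest LSK+ library, and the LSK+ values were the more scattered (66.4 ± 21.4 against 91.9 ± 3.60, SD, n = 4 each). The difference was 25.6 points (exact permutation p = 0.0556), 20.9 among replicates 1 and 30.2 among replicates 2. Ranked by fold enrichment rather than by p, or measured as summit height over background, the groups overlapped and Epor was no longer called.

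A separate region over the start of Epor (chr9:21963415-21963875) was listed at 12.8 in LSK- WT replicate 1 and 56.6 in LSK- XistΔ/Δ replicate 1, and in no other library. Its highest distal region, 14.7 kb upstream in an intron of Rgl3, was listed at 34.2 to 58.6 in all 4 replicates 1 and in no replicate 2. The 3 genes outside the windows whose promoter percentiles were most like those of Epor across the 8 libraries, by Pearson's r, were Rps16 (0.993), Rtf2 (0.991) and Vps33a (0.991), of 12223 genes listed in all libraries. Those most like the 3 kb value of Klf1 were Prmt9 (0.9898), Matn2 (0.986) and Klc2 (0.985). The 8 points share library depth and list length, so these are descriptions only.

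Tfrc encodes the transferrin receptor, which every dividing cell uses and erythroblasts use most. Its promoter (chr16:32608503-32609701) stood at 98.9, 92.1, 96.1 and 96.1 in LSK+ and 97.5, 94.2, 98.5 and 97.3 in LSK-, with overlap (difference 1.097, exact permutation p = 0.556). Its distal region of highest mean, 42.3 kb from the start in an intron of Tnk2, stood at 98.7, 78.5, 97.4 and 89.2 in LSK+ and 89.1, 65.5, 87.2 and 84.3 in LSK-. It overlapped in the full lists and was higher in LSK+ in lists of equal length. An intronic region 5.4 kb into Tfrc was not listed in LSK+ and was at 47.3, 67.9 and 71.8 in 3 LSK- libraries, missing in WT replicate 2.

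Car1 encodes carbonic anhydrase 1, a red-cell enzyme, and gave the clearest contrast of the 8 genes. Its promoter region (chr3:14808068-14808879, gene on the minus strand) was not listed in any LSK+ library and stood at 95.1, 86.2, 97.0 and 86.5 in LSK-. The summit carried 124, 81, 372 and 80 fragments in these LSK- libraries, 67.5 to 96.2 times their background. The weakest peaks listed at the general background of the LSK+ libraries stood at 4.398 to 10.4 times it. The difference was 91.2 points (exact permutation p = 0.0556, fixed by listing in LSK- alone), 96.1 among replicates 1 and 86.3 among replicates 2. The promoter remained called under every setting that was run. With no LSK+ peak listed, only the loss of an LSK- peak from its list could have removed the call.

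The other regions of the Car1 window were weaker. The region just past the 3′ end of the gene, 43.0 kb from its start, stood at 14.4, 17.1, 25.5 and 9.73 in LSK- and was not listed in LSK+. In lists of equal length it was in no list. The region 11.8 kb upstream was at 61.1 in LSK- WT replicate 1 and 80.8 in LSK- XistΔ/Δ replicate 1 and unlisted elsewhere, so it followed the deeper replicate in LSK-. The remaining regions did not pass the 15th percentile in any library.

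The Car1 promoter sequence is shown as the strongest region listed in LSK- alone. It is GRCm38 chr3:14808369-14808616, written on the minus strand along the gene, ending at the base before the first exon, and capitals mark a KLF motif and a GATA motif (read on the opposite strand).
Car1 promoter: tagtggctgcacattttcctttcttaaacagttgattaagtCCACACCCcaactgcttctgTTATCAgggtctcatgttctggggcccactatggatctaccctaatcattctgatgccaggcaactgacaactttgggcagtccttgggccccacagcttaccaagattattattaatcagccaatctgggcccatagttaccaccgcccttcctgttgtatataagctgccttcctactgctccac

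Car2 encodes carbonic anhydrase 2, the high-activity form found in red cells and many other tissues. Its promoter (chr3:14886107-14888024) was open in both cell types, at 90.4, 92.9, 85.7 and 90.1 in LSK+ and 80.1, 82.9, 91.1 and 83.9 in LSK- (difference -5.29, exact permutation p = 0.167). Without LSK- XistΔ/Δ replicate 1, the library with the most peaks, all LSK+ values lay above all LSK- values. The change between cell types lay upstream instead. The region 8.6 kb upstream (chr3:14877198-14878041) was listed once in LSK+, at 1.77 in XistΔ/Δ replicate 1, and stood at 90.0, 51.3, 93.8 and 37.3 in LSK- (difference 67.6, exact permutation p = 0.0556).

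The Car2 region 7.2 kb upstream (chr3:14878783-14879257) was not listed in LSK+ and stood at 75.7, 57.7, 88.5 and 67.8 in LSK- (difference 72.5, exact permutation p = 0.0556). Nearer to the gene, the region 5.7 kb upstream (chr3:14880333-14880761) was the reverse. It stood at 62.0, 13.4, 60.2 and 41.8 in LSK+ and was not listed in any LSK- library (difference -44.3, exact permutation p = 0.0556). For the regions at 7.2 and 5.7 kb the p-value followed from listing in a single cell type. A region 14.7 kb upstream, in an exon of Car3, was the highest distal one and was listed at 83.7 or more in all 8 libraries.

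The 3 neighbouring Car2 regions are printed together because they differ in which cell type listed them. They are GRCm38 windows on the plus strand, at chr3:14877543-14877842, chr3:14878940-14879239 and chr3:14880404-14880703, with GATA motifs in capitals.
Car2 8.6 kb upstream, listed in LSK-: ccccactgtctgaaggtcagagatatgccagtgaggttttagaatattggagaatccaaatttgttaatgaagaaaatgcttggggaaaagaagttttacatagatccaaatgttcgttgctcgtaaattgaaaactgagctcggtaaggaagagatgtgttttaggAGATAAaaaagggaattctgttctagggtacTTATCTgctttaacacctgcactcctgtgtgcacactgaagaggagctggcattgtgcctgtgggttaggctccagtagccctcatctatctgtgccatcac
Car2 7.2 kb upstream, listed in LSK-: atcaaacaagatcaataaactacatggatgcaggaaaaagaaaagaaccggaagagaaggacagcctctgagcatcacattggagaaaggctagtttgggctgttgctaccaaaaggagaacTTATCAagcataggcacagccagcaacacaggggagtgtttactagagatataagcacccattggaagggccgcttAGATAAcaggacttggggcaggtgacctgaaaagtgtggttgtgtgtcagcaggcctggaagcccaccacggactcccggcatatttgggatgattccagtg
Car2 5.7 kb upstream, listed in LSK+: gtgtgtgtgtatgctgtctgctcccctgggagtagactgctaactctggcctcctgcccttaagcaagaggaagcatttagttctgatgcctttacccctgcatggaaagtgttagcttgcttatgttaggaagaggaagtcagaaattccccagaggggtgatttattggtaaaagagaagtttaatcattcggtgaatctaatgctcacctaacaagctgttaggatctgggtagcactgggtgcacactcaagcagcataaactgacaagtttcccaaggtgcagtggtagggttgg
The first and second windows each hold 2 GATA motifs, and the third holds none of the motifs searched.

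Aqp1 encodes the water channel aquaporin 1 of the red-cell membrane. Its promoter (chr6:55335935-55336705) stood at 87.6, 64.1, 89.6 and 85.9 in LSK+ and 82.7, 79.8, 91.2 and 85.6 in LSK-, with overlap (difference 2.99, exact permutation p = 0.778). As at Car2, distal regions separated the cell types. The region 22.6 kb from the start and downstream of the gene (chr6:55358721-55359389) was not listed in LSK+ and stood at 91.1, 76.5, 94.8 and 73.5 in LSK- (difference 84.0, exact permutation p = 0.0556), by 93.0 points among replicates 1 and 75.0 among replicates 2. This p followed from listing in LSK- alone.

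The Aqp1 region 12.4 kb upstream (chr6:55323704-55325094) was listed once in LSK+, at 12.5 in XistΔ/Δ replicate 1, and stood at 83.1, 42.4, 92.9 and 52.7 in LSK- (difference 64.7, exact permutation p = 0.0556). The region at 19.8 kb, the highest distal one by mean, overlapped, with 34.3 to 73.6 in LSK+ and 51.6 to 82.5 in LSK-. In all, 2 to 4 regions of the Aqp1 window were listed in an LSK+ library and 7 to 12 in an LSK- library. The sequence of the region at 22.6 kb (GRCm38 chr6:55358853-55359152, plus strand) is shown as the strongest distal region of the 8 windows that was listed in LSK- alone, with its 2 GATA motifs in capitals.
Aqp1 22.6 kb: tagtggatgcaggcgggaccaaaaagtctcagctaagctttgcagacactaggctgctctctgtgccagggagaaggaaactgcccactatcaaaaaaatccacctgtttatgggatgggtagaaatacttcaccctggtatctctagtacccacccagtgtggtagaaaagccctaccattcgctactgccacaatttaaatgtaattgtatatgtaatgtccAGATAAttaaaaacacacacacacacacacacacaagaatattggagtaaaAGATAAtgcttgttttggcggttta

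**Figure D3:**
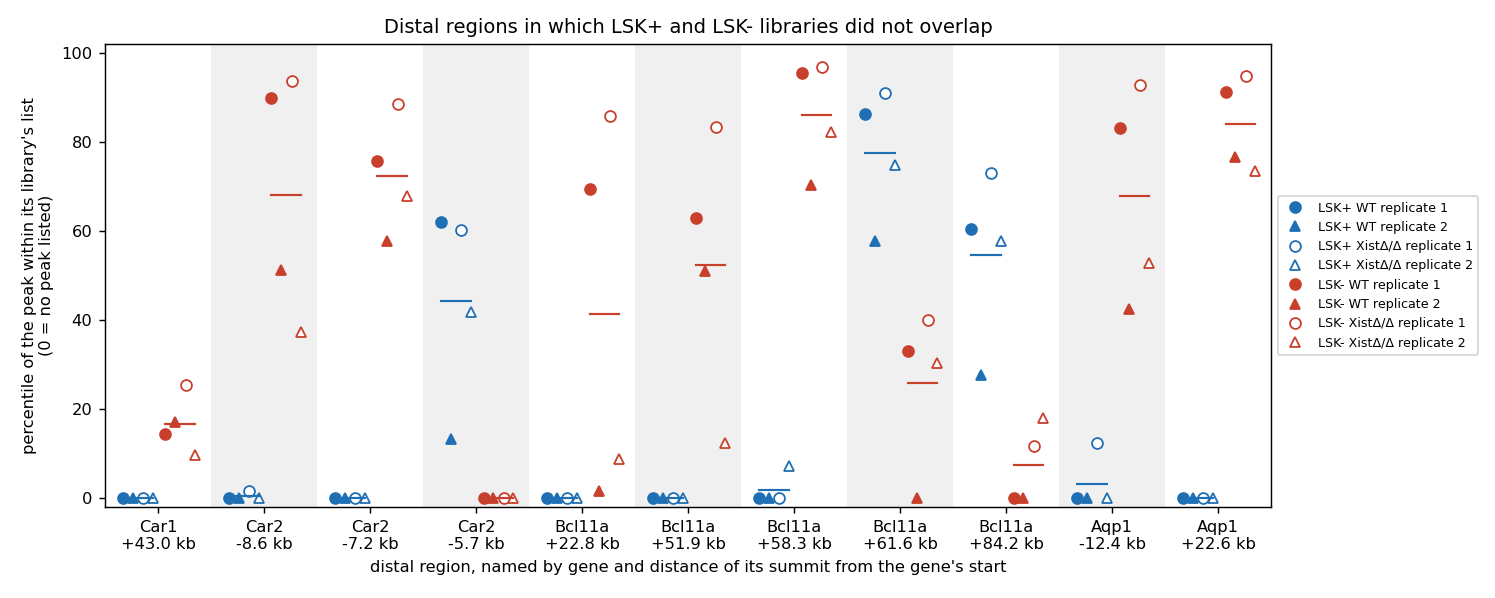
Percentile in each library (vertical axis, 0 where no peak was listed) of the 11 distal regions whose cell types did not overlap, named by gene and distance in kb, with lines at the mean of each cell type. In 8 regions the LSK- libraries (red) lie above, and in 3, at Car2 and Bcl11a, the LSK+ libraries (blue).

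Over all windows, 29 of 71 distal regions were listed in at least 4 libraries. Their median difference, LSK- minus LSK+, was 7.22 points, against 0.434 over all distal regions. Both medians include regions that met the 4-library rule through 1 cell type alone. They were not taken without such regions, so they are descriptions only. Of the 29 regions, 8 were higher in LSK- and 3 in LSK+, against 9.05% and 4.85% of the 39025 distal regions of the whole series. The called regions lay at Car1 (1), Car2 (3), Bcl11a (5) and Aqp1 (2), and none at Klf1, Epor, Tfrc or Nfe2. A region listed in the 4 LSK- libraries and nowhere else had to be called. That was so for 5 of the 8, and for 2209 of the 3530 called in the series. In the same way, 1 of the 3 higher in LSK+, and 570 of 1891 in the series, were listed in LSK+ alone. Among regions listed in at least 5 libraries, 3 of 18 in the windows and 4.45% of the series were higher in LSK-. Higher in LSK+ were 2 of 18 and 4.45%.

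The distal counts depended on the measure. With shortened lists or 50% cover, a region again had to be listed in at least 4 libraries. That left 15432 distal regions of the series with shortened lists and 25344 with 50% cover. Fewer of the window regions than the 29 above could then be called, and how many is not given. In lists shortened to the 29829 strongest peaks, 4 distal regions were higher in LSK- (Car2 7.2 kb upstream, Bcl11a 58.3 kb, both called Aqp1 regions), against 14.6% of the series, and the 3 higher in LSK+ included Tfrc 42.3 kb in place of Car2 5.7 kb upstream (19.5% of the series). Requiring a peak to cover 50% of the merged region left 2 higher in LSK- (Car2 8.6 kb upstream and Aqp1 22.6 kb) and 1 in LSK+ (Car2 5.7 kb upstream), against 3.43% and 4.29% of the series. Within pairs of the same replicate number, 10 distal regions were higher in LSK- in every pair and 5 in LSK+, against 18.6% and 15% of the series. Without LSK+ WT replicate 2, the shallowest library, 6 were higher in LSK+, against 19% of the series.

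The 300 bp windows on the summits were searched on both strands for 4 motifs. The first, called GATA, was either AGATAA or, with another first base, TGATAA. The KLF motif was CCNCNCCC. The core shared by NF-E2 and AP-1 was TGANTCA. The E-box with GATA was CTG followed, after 6 to 10 bases of any kind, by GATAA, so that it overlaps the first. The GATA motif was found in 7 of the 8 distal regions higher in LSK-, the exception being Car1 43.0 kb, and in none of the 3 higher in LSK+. It was in 30.9% of all distal regions listed in at least 4 libraries and in 25 of all 71 distal regions of the windows. Its share among all distal regions of the series higher in LSK- was not measured. Whether the GATA share is particular to these windows was thus not tested. The KLF motif was found in 2 of the 8 and none of the 3 (30.7% of all such distal regions), and the NF-E2 core in none of the 11 (12.8%). Of the 8 regions, 1 held the E-box with GATA (Aqp1 12.4 kb upstream), as 8.87% of distal regions did. Of the 21 own promoter regions, 15 held the KLF motif, 6 the GATA motif and 5 the E-box with GATA. Among the 13 of them listed in at least 4 libraries these counts were 10, 3 and 2, against 58.2%, 14.5% and 3.77% of all such regions within 3 kb of a start. These shares are descriptions, and a match is no evidence of binding.

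The other erythroid genes, a list of which 50 are reported, were described in the same way. Of these, 47 had promoters listed in at least 4 libraries, and 13 were higher in LSK-, against 1.89% of all promoters. For 4 of the 13 (Gata1, Slc4a1, Rhag and Add2) the call was fixed by being listed in the 4 LSK- libraries alone. Among those listed in at least 5 libraries, 9 of 43 were higher in LSK-, against 1.73% of all promoters. The median difference between cell types over the 47 was 7.32 points, against 1.27 over all promoters. Here too, promoters listed in LSK- alone were included and no median was taken without them. Among the regulators, the promoter of Gata1 was not listed in LSK+ and stood at 29.6, 28.7, 72.7 and 41.2 in LSK-. That of Tal1 was listed everywhere, at 77.8 to 87.5 in LSK+ and 78.2 to 87.5 in LSK-.

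The promoter of Slc4a1, the anion exchanger band 3, was not listed in LSK+ and stood at 70.5, 27.6, 89.3 and 22.7 in LSK-. Add2 and Rhag had no listed promoter in LSK+ either, and stood at 59.0 to 86.2 and 35.5 to 80.2 in LSK-. The promoter of Sptb, a spectrin gene, stood at 2.44 to 45.6 in LSK+ and 75.8 to 93.8 in LSK-. Ank1, Kel and Tmod1 showed the same order. The promoters of Gypc, Epb41, Epb42, Ermap and Icam4, also genes of the red-cell membrane or its skeleton, did not separate the cell types.

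Of the haem genes, Alas2, the erythroid form of the rate-limiting enzyme, stood at 0, 0, 7.67 and 0 in LSK+ and 73.3, 70.6, 96.8 and 78.4 in LSK-. The promoters of Alad, Uros, Urod, Cpox, Ppox and Fech, which act later in haem synthesis, did not separate the cell types. Trim10 (0, 0, 0 and 11.8 in LSK+, 94.8, 76.3, 94.8 and 80.9 in LSK-) had the largest difference, 83.8 points. Tspo2, E2f2 and Nfe2l2 completed the 13. The genes Lmo2, Icam4 and Slc25a38, 3 of the 47, were higher in XistΔ/Δ in both cell types, against 19.6% of all promoters. Ahsp was not found under that name in the annotation.

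**Figure D4:**
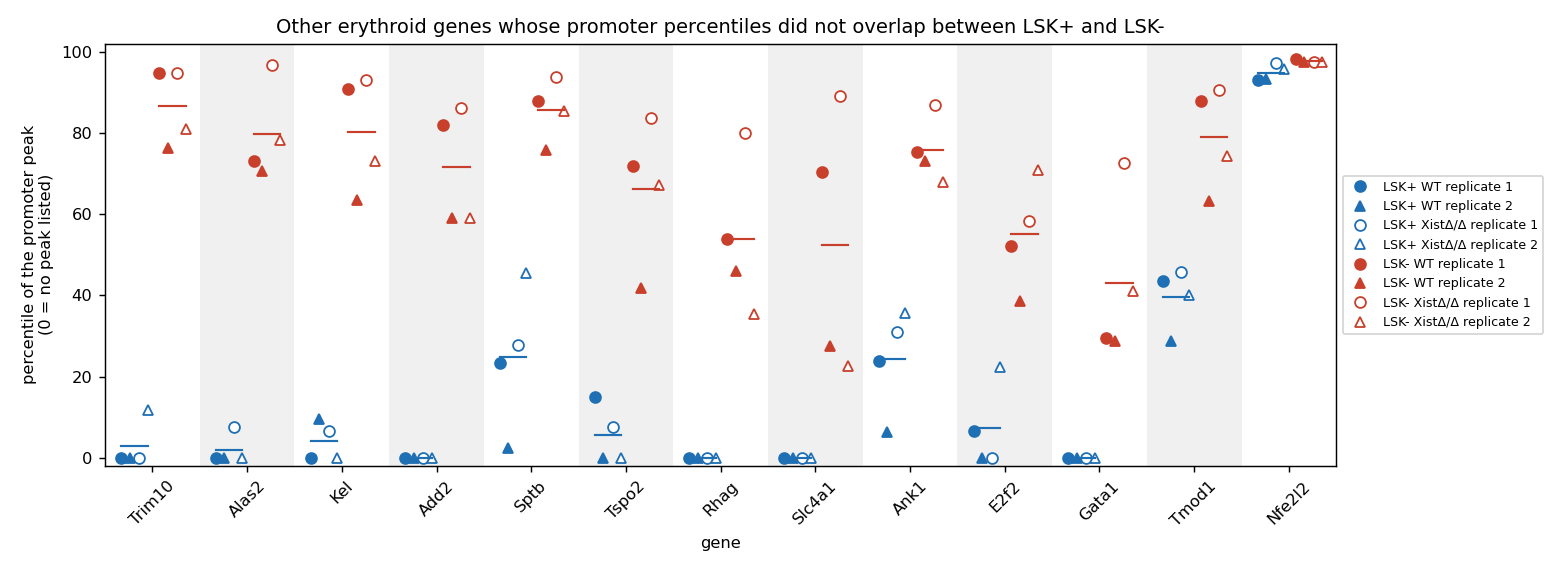
Percentile of the promoter peak in each library (vertical axis) for the 13 other erythroid genes reported as higher in LSK-, ordered by the difference LSK- minus LSK+, with lines at the mean of each cell type. From Trim10, with a difference of 83.8 points, to Nfe2l2, with 2.87 points, the LSK- libraries (red) lie above the LSK+ libraries (blue).

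The partners of NF-E2 were open in both cell types. None of 6 (Mafg, Mafk, Maff, Bach1, Bach2 and Nfe2l1) separated them, where 1.89% of all promoters were higher in LSK- and 2.07% in LSK+. Mafg, 1 of the 6, was higher in XistΔ/Δ in both, against 19.6% of all promoters. Of the 7 other carbonic anhydrases and aquaporins, 6 were listed in at least 4 libraries and 1, Aqp8, was higher in LSK-, against 1.89% of all promoters. Aqp8 stood at 0, 0, 35.8 and 36.4 in LSK+ and 96.1, 76.0, 94.8 and 77.0 in LSK-. These lists are too short for such counts to set them apart from all promoters.

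Markers of other cell types were counted beside these. The promoter of Kit was listed in all 8 libraries, at 83.0 to 94.5. That of Ly6a, which encodes SCA-1, was listed at 10.8 in LSK+ WT replicate 1 and 29.6 in LSK- XistΔ/Δ replicate 1 alone, so it did not separate the sorted cell types. Of the lineage genes that the gate should remove, Ly6g, Cd3e, Cd8a and Cd4 were not listed in any library, while Itgam, which encodes CD11b, was. Ptprc, also listed, encodes CD45, which nearly all blood cells carry. Its B220 form was the one gated, so the listed promoter does not bear on the gate. Of the stem and multipotent genes reported (9), 8 were listed in at least 4 libraries, with a median difference, LSK- minus LSK+, of -4.18 points. None of the 8 separated the cell types. Mecom, Hoxa9 and Mllt3 were higher on average in LSK- (by 3.20, 5.62 and 13.0 points) and the others in LSK+. Of the megakaryocyte genes reported (6), 1, Treml1, was higher in LSK-, against 1.89% of all promoters. The summed percentiles of these 6 genes were 229 to 424 in LSK+ and 284 to 439 in LSK-. Of the granulocyte-monocyte genes (8), lymphoid genes (5 of 6 listed in at least 4 libraries) and mast cell and basophil genes (3 of 5), none separated the cell types. With 1.89% of all promoters higher in LSK- and 2.07% in LSK+, these lists are too short for their counts to be told from the series. The granulocyte-monocyte sum was 272 to 572 in LSK+ and 494 to 600 in LSK-. By genotype, Kit, Itgam (1 of 2 listed lineage genes), 2 of 8 stem and 2 of 8 granulocyte-monocyte genes were higher in XistΔ/Δ in both cell types. So were 1 of 6 megakaryocyte, 2 of 5 lymphoid and 0 of 3 mast cell genes, against 19.6% of all promoters. The median of XistΔ/Δ minus WT was, in that order of lists, 33.6, 8.79, 20.8, 14.9, 17.6 and 22.3 points, against 6.41 over all promoters. The part of these other cell types in the erythroid differences was not tested.

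By genotype, 1 of the 8 promoters (Klf1) was higher in XistΔ/Δ in both cell types and none was higher in WT. Of all promoters 19.6% were higher in XistΔ/Δ and 0.0268% in WT. Of the 29 distal regions 2, both at Bcl11a, were higher in XistΔ/Δ and none in WT, against 12% and 0.00256% of all distal regions. These counts, 1 of 8 and 2 of 29, are too small to set the members apart from the series. The XistΔ/Δ lists were longer (62533 to 91590 peaks, against 29829 to 71153 in WT). Over the 8 promoters the median of XistΔ/Δ minus WT was 3.33 points, with all 8 above 0, while over all promoters it was 6.41 points, with 96.9% above 0.

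The Klf1 promoter value was higher in XistΔ/Δ by 5.33 points (exact permutation p = 0.0556), at 91.1 and 94.7 against 90.2 and 90.0 in LSK+ and at 90.1 and 92.5 against 78.5 and 88.3 in LSK-. The difference was 6.23 points among replicates 1 and 4.42 among replicates 2. With ranking by fold, or with starts within 1 kb, Bcl11a and not Klf1 was the promoter called, and by summit height Aqp1 was. At the start of Klf1 the genotypes overlapped in LSK- (69.4 and 43.5 for WT, 86.3 and 30.6 for XistΔ/Δ). Epor was higher by 13.4 points on average with overlap (exact permutation p = 0.222), and its difference was -1.49 among replicates 1 and 28.3 among replicates 2. For the Car1 promoter the LSK- values of the genotypes interleaved, with 95.1 and 86.2 for WT against 97.0 and 86.5 for XistΔ/Δ.

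At Bcl11a, the region 33.9 kb into the gene stood at 53.4 and 58.5 in XistΔ/Δ against 36.02 and 0 in WT in LSK+, and at 33.2 and 69.6 against 12.8 and 19.7 in LSK- (difference 36.6, exact permutation p = 0.0556). The region at 107.1 kb was higher by 15.1 points (exact permutation p = 0.0556). The regions 0.6 kb upstream of and 3.1 kb into Bcl11a, both promoter regions, were also higher in XistΔ/Δ in both cell types, by 22.4 and 18.4 points (exact permutation p = 0.0556 each). With the region 1.3 kb into Klf1, 3 of the 13 own promoter regions listed in at least 4 libraries were higher in XistΔ/Δ, against 17.4% of all such regions within 3 kb of a start.

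When every list was shortened to its 29829 strongest peaks, none of the 8 promoters and none of the distal regions was higher in either genotype in both cell types (0.893% of all promoters and 1.25% of all distal regions were higher in XistΔ/Δ). The Klf1 difference was then 3.66 points (exact permutation p = 0.889), the Bcl11a promoter difference 2.37 and the Epor difference 2.18. These are means over LSK+ and LSK-, and at each of these genes the 2 cell types differed in sign. In LSK+, XistΔ/Δ was lower on average at Klf1 (75.4 and 88.7 against 79.2 and 90.0) and Epor (12.8 and 69.0 against 48.2 and 35.97). In LSK- it was lower at Bcl11a (55.1 and 57.8 against 64.6 and 60.01). The sign of the mean over both cell types turned at Car1 (-2.11), Car2 (-6.29) and Tfrc (-1.40). Within pairs of the same replicate number, XistΔ/Δ was the higher in every pair at 4 of the 8 promoters (Klf1, Nfe2, Bcl11a and Aqp1) and at 7 distal regions, against 43.2% of all promoters and 30.1% of all distal regions.

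**Figure D5:**
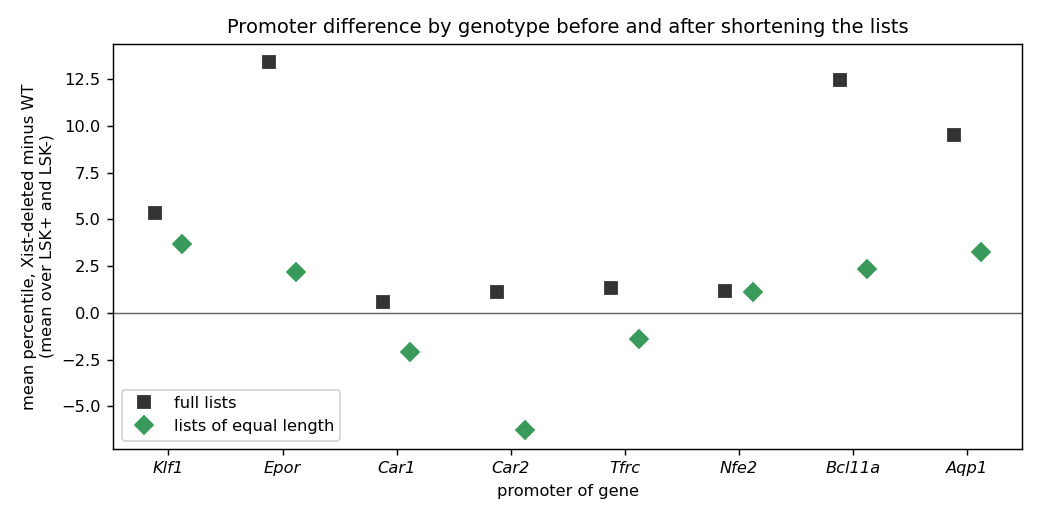
Mean promoter percentile in XistΔ/Δ minus WT (vertical axis, points, averaged over LSK+ and LSK-) for each gene, in the full lists (squares) and in lists shortened to the same length (diamonds). In the full lists all 8 differences are above 0, as for 96.9% of all promoters, and in lists of equal length Car1, Car2 and Tfrc fall below 0.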

How the data were processed

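Peak lists of 8 ATAC-seq libraries (2 per group, LSK+ and LSK-, WT and XistΔ/Δ) were analysed. Per the study's methods and the submitters' processing notes, the authors trimmed reads with Trim Galore, aligned them to mm10 with Bowtie2 2.3.5.1, removed reads of mapping quality under 30 and mitochondrial reads with SAMtools 1.10, and called peaks in each library with MACS2 2.2.7.1 at q 0.01 on paired-end fragments, without pooling replicates. A control library, removal of duplicates and a shift for Tn5 insertion are not given in the sources used here. The deposited lists give, per peak, a fold enrichment over the local background as a ratio (pseudocount 1), the −log10 p-value and −log10 q-value at the summit, a score made from the latter and the summit position. They hold no counts over common regions, so no count model was used.

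Peaks on autosomes and X were ranked by −log10 p within each list, merged where they shared 1 bp, and matched to GENCODE M21 basic genes (no list ran past a chromosome end of GRCm38). Starts were transcript starts and gene 5′ ends. Features had to be listed in at least 4 of the 8 libraries to be called. Differences were tested with two-sided exact permutation tests within genotype or cell type (36 assignments, smallest p 0.0556, so none can pass 0.05). The labels do not say whether the libraries of a group came from separate animals, so p-values measure the spread between these libraries. Summit fragments and background were solved from the fold and p. The solver, tests and calls were tested on simulated data with known answers.

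Replicate numbers went with different sequencing run codes in the peak names. Deviations from the group means over 14933 promoters correlated between same-numbered libraries at 0.351 to 0.550 in every pair of groups, so the numbers were taken to pair the libraries, and paired values are given where they change a count of calls in the windows. The members, gene lists, motifs and tests were chosen with earlier results of these data known. Some genes of these lists, with calls in both directions between the cell types, are not reported here and were left out of the lists' counts, medians and sums. Named regions were those without overlap between cell types or genotypes and, per gene, the distal region of highest mean. Other regions described were chosen after their values were seen. Alternatives were equal list length, ranking by fold, −log10 q of at least 5, the replicate block, each library left out, starts within 1 kb, windows of 10 kb, peaks covering 50% of a region and, chosen after seeing the data, summit height over background. Python 3.11.15, NumPy 2.4.6, SciPy 1.17.1 and pandas 2.3.3 were used.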

Additional observations from a re-analysis of the deposited data

Results flagged for a closer look

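The Car2 promoter went opposite ways by genotype in the 2 cell types in every library. In LSK+ both XistΔ/Δ values (85.7 and 90.1) lay below both WT values (90.4 and 92.9), a mean difference of -3.77 points. In LSK- both XistΔ/Δ values (91.1 and 83.9) lay above both WT values (80.1 and 82.9), a mean difference of 5.99 points. The difference between these effects was not tested, and how many of all promoters go opposite ways in this manner was not counted. Over all promoters the median of XistΔ/Δ minus WT, averaged over both cell types, was 6.41 points. In lists of equal length the LSK- genotypes overlapped, with 72.6 and 66.2 for XistΔ/Δ and 52.4 and 78.5 for WT, while in LSK+ both XistΔ/Δ values (60.5 and 79.03) stayed below both WT values (79.7 and 92.9). No group has more than 2 libraries, so no library could be examined as an outlier within its group.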

How the results depend on the processing

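The LSK- call of the Car1 promoter was kept under all settings run. With no LSK+ peak listed there, this required only that its LSK- peaks stayed listed. Of the count of promoters higher in LSK-, 2 in the full lists, 1 was left (Car1) with ranking by fold and with summit height over background, while promoters higher in LSK+ went from 0 to 1 under the replicate block. Promoters higher in XistΔ/Δ stayed at 1 by fold, by height and within 1 kb, but the gene was Bcl11a, Aqp1 and Bcl11a in place of Klf1. They went from 1 to 0 at equal list length and to 4 under the replicate block. Distal regions higher in LSK- went from 8 to 4 at equal list length, 2 with peaks covering 50% of a region and 10 under the replicate block. Those higher in LSK+ went from 3 to 1 with 50% cover, 5 under the replicate block and 6 by summit height. Those higher in XistΔ/Δ went from 2 to 0 at equal list length, to 1 with 10 kb windows, 50% cover or summit height, and to 7 under the replicate block. The cause was not tested, except that pairing asks less of the values. Leaving out 1 library at a time gave 2 to 2 promoters higher in LSK-, 0 to 1 in LSK+ (1 without LSK- XistΔ/Δ replicate 1) and 1 to 4 in XistΔ/Δ (4 without LSK+ WT replicate 1, 3 without LSK+ XistΔ/Δ replicate 2, and 2 without LSK+ XistΔ/Δ replicate 1, LSK- WT replicate 1 or LSK- XistΔ/Δ replicate 2), and 8 to 11, 3 to 6 (6 without LSK+ WT replicate 2) and 2 to 4 distal regions (4 without LSK+ WT replicate 1 or LSK- WT replicate 1). Differences that changed sign were those between cell types for Klf1 within 1 kb (57.4), for Tfrc by fold (-0.870) and height (-11.2, times background), for Nfe2 by fold (6.15), for Bcl11a by height (-19.5) and for Aqp1 at equal length (-0.835), by fold (-8.42) and by height (-6.76). By genotype they were those for Car1 (-2.11 at equal length, -0.511 by height), Car2 (-6.29 at equal length, -1.70 by fold, -10.95 by height) and Tfrc (-1.40 at equal length, -0.345 by fold). With 1 library left out, the difference between cell types ranged from -0.593 to 2.79 for Tfrc, -0.642 to 0.216 for Nfe2 and -2.88 to 8.86 for Aqp1, and that by genotype from -2.07 to 3.19 for Car1, -0.687 to 2.91 for Car2 and -0.348 to 3.03 for Tfrc. The differences of the called distal regions kept their sign at equal list length, in pairs and with each library left out, apart from Car1 43.0 kb, unlisted at equal length. With shallow libraries, a peak missing from a list does not show closed chromatin.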
